A study of Mus musculus with 6 samples.

Results

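The 9 genes described here encode complement proteins other than C1q, together with a receptor and an inhibitor of the system: C1ra, C1s1, C4b, C2, C3, Cfb, Hc, C3ar1 and Serping1. They were chosen by name from the 55401 gene identifiers of the deposited count table, each matched 1 identifier, and all 9 had enough counts to be tested. RNA with a poly(A) tail had been sequenced from whole lacrimal glands, the tear-producing glands of the eye, of NOD/Ltj mice (3 libraries) and of ICR mice (3 libraries). Autoimmune disease arises without treatment in the inbred NOD/Ltj strain and reaches the tear and salivary glands. ICR is an outbred stock and was the control. No transgene or treatment is named for either strain. Neither age nor sex is given in the labels, and they do not say whether each library came from its own animal. The p-values thus reflect only how much these libraries varied, which may be technical.

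Complement is a cascade of blood and tissue proteins that tags microbes, immune complexes and damaged cells. In the classical pathway C1q activates the proteases C1r and C1s, which cut C4 and C2 into a convertase, and factor B supplies the corresponding protease of the alternative pathway. Both routes cut C3, the central component, and then C5. Most circulating complement is made in the liver, but fibroblasts, epithelia and macrophages make components locally, and interferons and inflammatory cytokines are known to induce several of these genes.

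The C3 and C1s1 promoters are shown because they hold a motif that was added to the search after the sequences had been read. Each line gives the 250 bases before the RefSeq start in build GRCm38.p6, at chr17:57228137-57228386 on the minus strand for C3 and at chr6:124542360-124542609 on the minus strand for C1s1. Capitals mark matches to TTGCNNAA, a core of the motif of C/EBP factors, on either strand.
C3: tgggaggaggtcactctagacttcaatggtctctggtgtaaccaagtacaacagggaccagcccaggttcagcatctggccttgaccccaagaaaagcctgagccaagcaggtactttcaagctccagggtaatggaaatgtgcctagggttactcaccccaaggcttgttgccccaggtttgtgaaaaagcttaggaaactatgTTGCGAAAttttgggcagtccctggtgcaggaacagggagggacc
C1s1: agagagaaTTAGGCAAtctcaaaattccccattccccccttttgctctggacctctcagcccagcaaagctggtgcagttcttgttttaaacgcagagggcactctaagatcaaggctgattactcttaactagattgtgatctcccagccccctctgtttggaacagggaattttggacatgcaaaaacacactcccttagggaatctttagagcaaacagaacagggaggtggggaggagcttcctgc
The match TTGCGAAA in C3 lies 37 bases before the start. In C1s1 the match TTAGGCAA lies 234 bases before the start used here. C1s1 has another RefSeq window, at chr6:124542322-124542571 on the minus strand, and it held no match. RefSeq windows were at hand for 5 of the 9 genes (C1ra, C1s1, C3, Hc and C3ar1), and only these 2 matches to TTGCNNAA were found in them, against 9.56% of 32851 mouse windows of this length that hold one. As that motif was added after the sequences of these genes had been read, the share of all windows gives no test of the 2 matches. A core of the interferon-stimulated response element (either strand, 2.98% of windows) and the NF-kB motif (7.25% of windows) were in none of the 5, which says only that these letters are not in these windows.

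The libraries held 62318534 to 64000969 estimated counts in NOD/Ltj and 58426580 to 76554340 in ICR. Levels are given as CPM (counts scaled to a common library size, after TMM scaling), on which 1 count was worth 0.0125 to 0.0185 CPM. On the second principal axis of log2 CPM, after the axis that separated the strains, ICR 1 stood apart, with a score of 65.4, while ICR 2 and ICR 3 scored -34.7 and -33.0. It was the highest of all 6 libraries for 8 of the 9 complement genes, the exception being C3ar1. For 6 of the 9 it lay more than 1 log2 unit above both other ICR libraries, as did 5.87% of all 18537 genes tested. The fold change of each of the 9 genes is therefore given with and without this library. As ICR 1 was singled out partly by its levels of these genes, p-values and intervals without it are no independent test. Leaving it out raised the fold change of each of the 9.

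None of the 9 genes passed the test between the strains. With edgeR's quasi-likelihood test adjusted over all genes, 0 of 9 were called at an adjusted p under 0.05, where 2.24% of all genes tested were called. At an unadjusted p under 0.05 there were also 0 of 9, against 13.1% of all genes. DESeq2 and limma-voom called 0 of 9 as well, against 5.59% and 0.771% of all genes with an adjusted p. At an unadjusted p under 0.05 they had 1 (C1ra) and 0. DESeq2 gave no p-value for C4b. The strains overlapped for all 9 genes, whereas 20% of all genes tested had groups without overlap. Fold changes are NOD/Ltj over ICR. Their median over the 9 genes was -0.73 on the log2 scale, beside -0.03 over all genes tested, and it was 0.45 without ICR 1, beside -0.02 over all genes. In bulk tissue, fewer cells of a type and less RNA per cell cannot be told apart.

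**Figure D1:**
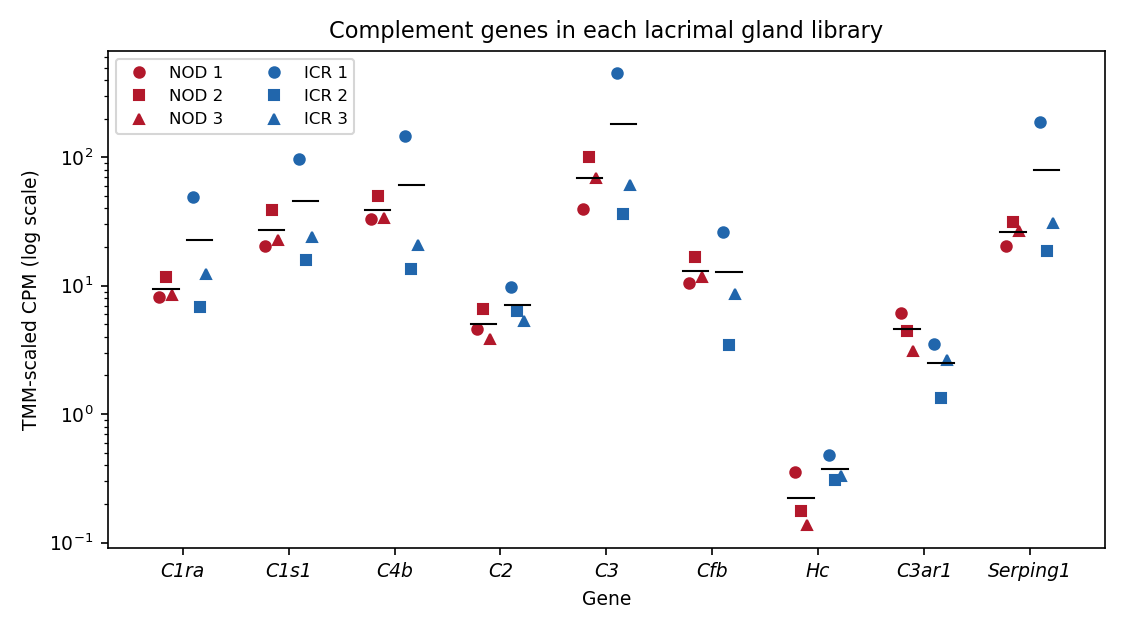
Level of each complement gene in each library (TMM-scaled CPM, log axis), NOD/Ltj in red and ICR in blue, with a symbol for each library and a black bar at the group mean. ICR 1 is the highest point for every gene but C3ar1, with 450.3 CPM for C3, and Hc lies below 0.5 CPM in every library.

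The proteases of the C1 complex, which start the classical pathway, had a wide spread in ICR. C1ra, which encodes the protease that activates C1s, stood at 8.09, 11.6 and 8.42 CPM in the NOD/Ltj libraries 1, 2 and 3, against 49.3, 6.77 and 12.3 CPM in the ICR libraries 1, 2 and 3. The NOD/Ltj values fell between ICR 2 and ICR 3, and ICR 1 was 5.17-fold above the mean of these 2. The log2 fold change of C1ra was -1.28 ± 0.66 (SE, adjusted p = 0.492) with all libraries and -0.03 ± 0.30 (SE, adjusted p = 0.976) without ICR 1. C1s1, which encodes the protease that cuts C4 and C2, stood at 20.5, 38.7 and 22.9 CPM in NOD/Ltj, against 96.6, 15.8 and 24.0 CPM in ICR. NOD 2 was above ICR 2 and ICR 3, while NOD 1 and NOD 3 lay between them. Its log2 fold change of -0.73 ± 0.65 (SE, adjusted p = 0.731) turned to 0.45 ± 0.33 (SE, adjusted p = 0.562) without ICR 1.

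C4b, the fourth component, whose fragment binds covalently to targets, shifted more than any other of these genes but C3 when ICR 1 was left out. It stood at 33.2, 50.1 and 33.7 CPM in NOD/Ltj, against 148, 13.6 and 20.7 CPM in ICR. All 3 NOD/Ltj libraries lay above ICR 2 and ICR 3 and below ICR 1. The log2 fold change was -0.64 ± 0.82 (SE, adjusted p = 0.833) with all libraries and 1.18 ± 0.28 (SE, adjusted p = 0.0812) without ICR 1, where the 95% interval ran from 0.52 to 1.83. The value without ICR 1 did not pass the adjusted threshold. DESeq2 gave C4b a log2 fold change of -0.62 and no p-value. C2, whose product joins C4b in the classical C3 convertase, varied least of the 9 across ICR after Hc in relative terms. It stood at 4.61, 6.59 and 3.85 CPM in NOD/Ltj, against 9.74, 6.35 and 5.31 CPM in ICR. Among NOD/Ltj libraries only NOD 2 reached the range of ICR. For C2 the log2 fold change was -0.51 ± 0.32 (SE, adjusted p = 0.582), or -0.23 ± 0.29 (SE, adjusted p = 0.770) without ICR 1.

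C3 encodes the component on which all pathways converge. It stood at 39.6, 99.9 and 69.2 CPM in NOD/Ltj, against 450.3, 36.2 and 61.2 CPM in ICR, so that ICR 1 alone was 9.25-fold above the mean of ICR 2 and ICR 3. NOD 2 and NOD 3 were above both of these libraries and NOD 1 lay between them. For C3 the log2 fold change was -1.39 ± 0.90 (SE, adjusted p = 0.596) with all libraries and 0.51 ± 0.41 (SE, adjusted p = 0.614) without ICR 1. Cfb, the factor B protease of the alternative pathway, stood at 10.4, 16.7 and 11.7 CPM in NOD/Ltj, against 26.2, 3.46 and 8.64 CPM in ICR. As for C4b, the 3 NOD/Ltj libraries lay between ICR 1 and the other ICR libraries. For Cfb it was 0.02 ± 0.64 (SE, adjusted p = 0.994) and 1.09 ± 0.41 (SE, adjusted p = 0.247) without ICR 1, with a 95% interval from 0.12 to 2.06.

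Hc encodes C5, the component from which the anaphylatoxin C5a and the start of the membrane attack complex are made. NOD mice are known to carry a small frameshifting deletion in this gene and to lack C5 in the blood. The gland held few Hc reads in either strain, with 19, 14 and 9 counts in NOD/Ltj, against 33, 19 and 19 counts in ICR. Low values in this table piled up at multiples of 4 (30.4 to 31.7% of values from 1 to 40, where 25% would be without steps), so a low count need not be a number of independent fragments. As levels they were 0.352, 0.174 and 0.136 CPM in NOD/Ltj, against 0.477, 0.307 and 0.332 CPM in ICR. NOD 1 lay within the ICR range and the other NOD/Ltj libraries below it. The log2 fold change of -0.76 ± 0.64 (SE, adjusted p = 0.716) had a 95% interval from -2.25 to 0.73. Without ICR 1 it was -0.56 ± 0.76 (SE, adjusted p = 0.793).

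C3ar1 encodes the receptor for the anaphylatoxin C3a and is found on myeloid cells. It stood at 6.13, 4.45 and 3.11 CPM in NOD/Ltj, against 3.51, 1.34 and 2.62 CPM in ICR. NOD 1 and NOD 2 were above every ICR library, and NOD 3 lay below ICR 1. The log2 fold change was 0.87 ± 0.42 (SE, adjusted p = 0.455), with a 95% interval from -0.12 to 1.86, and 1.19 ± 0.42 (SE, adjusted p = 0.217) without ICR 1. Serping1 encodes the C1 inhibitor, which removes active C1r and C1s. It stood at 20.5, 31.3 and 26.6 CPM in NOD/Ltj, against 187, 18.7 and 31.0 CPM in ICR. The NOD/Ltj libraries spanned about the same range as ICR 2 and ICR 3. For Serping1 the log2 fold change was -1.59 ± 0.79 (SE, adjusted p = 0.469) with all libraries and 0.07 ± 0.27 (SE, adjusted p = 0.946) without ICR 1, where the 95% interval ran from -0.58 to 0.71.

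With all libraries 7 of the 9 log2 fold changes were negative and 2 positive, and without ICR 1 3 were negative and 6 positive. The sign differed between these fits for 4 genes, C1s1, C4b, C3 and Serping1. Without ICR 1, 0 of 9 passed by edgeR, where 2.71% of all genes tested did. At an unadjusted p under 0.05 there were then 3 of 9 (C4b, Cfb and C3ar1), against 16.6% of all genes. This share gives no test of the 3 genes, since ICR 1 was singled out partly by its levels of the 9. For the same 3 genes all NOD/Ltj libraries were above ICR 2 and ICR 3, as for 18.9% of all genes tested.

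**Figure D2:**
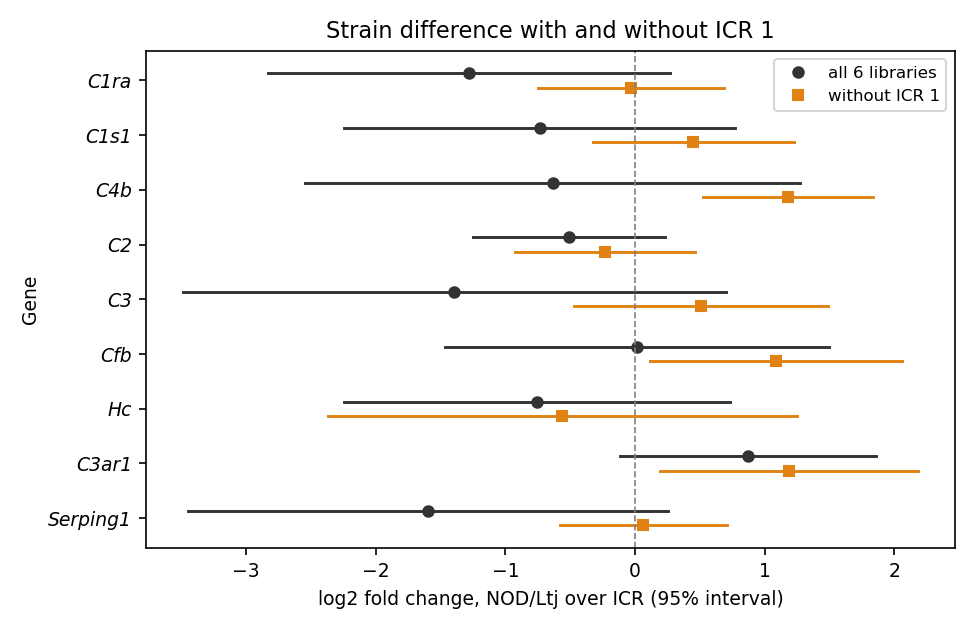
Log2 fold change of each gene, NOD/Ltj over ICR, with its 95% interval, for all 6 libraries (black circles) and without ICR 1 (orange squares). All 9 black intervals cross 0, and without ICR 1 those of C4b, Cfb and C3ar1 lie above 0, with adjusted p of 0.0812, 0.247 and 0.217.

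Levels of different genes were compared per kilobase of annotated exon. In NOD/Ltj, C3 averaged 13.5 ± 5.86 CPM per kilobase and Serping1 11.3 ± 2.33 (SD, n = 3 each), followed by C1s1 with 8.74 ± 3.15, C4b with 6.85 ± 1.69 and Cfb with 4.57 ± 1.17 (SD, n = 3 each). C1ra averaged 3.15 ± 0.65, C2 1.30 ± 0.37, C3ar1 1.06 ± 0.35 and Hc 0.035 ± 0.018 CPM per kilobase (SD, n = 3 each). The ranges of neighbours from C3 down to C1ra overlapped across libraries, as did those of C2 and C3ar1, while Hc lay below all others. Within each NOD/Ltj library, however, C1s1 was above C4b, C4b above Cfb and Cfb above C1ra. In ICR, the same scale gave C3 35.5 ± 45.2 and Serping1 34.0 ± 40.4 (SD, n = 3 each), with ICR 1 at 87.6 and 80.6 CPM per kilobase. Without ICR 1 the mean was 9.46 for C3 and 10.7 for Serping1, so the order of these genes in ICR turned with that library. Serping1 was also above C3 in NOD 1, at 8.83 and 7.70 CPM per kilobase.

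A ratio of counts within a library does not depend on how libraries are scaled. The 28 ratios among the 8 genes other than Hc, which had too few counts, were formed after the levels had been seen, each turned so that the NOD/Ltj mean was the higher. In 14 of the 28 the strains did not overlap, where 13.3% of the ratios of any tested gene to these 8 genes were without overlap. That share depended on the gene in the denominator, from 6.02% for C4b to 29.6% for C3ar1. The 28 ratios share genes and are not independent, and with 3 libraries against 3 an exact two-sided permutation test cannot go below p = 0.1, the value of each ratio without overlap. The numerator was C3ar1 in 5 of these ratios, Cfb in 4, C4b in 3 and C1s1 in 2.

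C4b and Cfb took a larger share relative to Serping1, C3 and C1ra in NOD/Ltj. The count of C4b over that of its pathway inhibitor Serping1 was 1.62, 1.60 and 1.27 in NOD/Ltj, against 0.788, 0.725 and 0.667 in ICR. ICR 1, which had by far the most of both transcripts, lay close to ICR 2 and ICR 3 in this ratio, and the mean ratio was 2.06-fold higher in NOD/Ltj. C4b over C3 was 0.839, 0.502 and 0.488 in NOD/Ltj, against 0.328, 0.375 and 0.338 in ICR. Cfb over Serping1 was 0.507, 0.532 and 0.438 in NOD/Ltj, against 0.140, 0.185 and 0.279 in ICR. Every NOD/Ltj library was thus above every ICR library for these 3 ratios. C3ar1 over Serping1 was 0.299, 0.142 and 0.117 in NOD/Ltj, against 0.0187, 0.0717 and 0.0847 in ICR, again without overlap but with ICR 1 the lowest. C3 over Serping1 overlapped, with 1.93, 3.19 and 2.596 in NOD/Ltj, against 2.40, 1.93 and 1.98 in ICR. C1ra over Serping1 overlapped as well, with 0.394, 0.371 and 0.316 in NOD/Ltj, against 0.263, 0.362 and 0.397 in ICR. The strains also overlapped for C4b over C1s1, C4b over C2 and Cfb over C2, with ICR 1 at 1.527, 15.15 and 2.687.

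**Figure D3:**
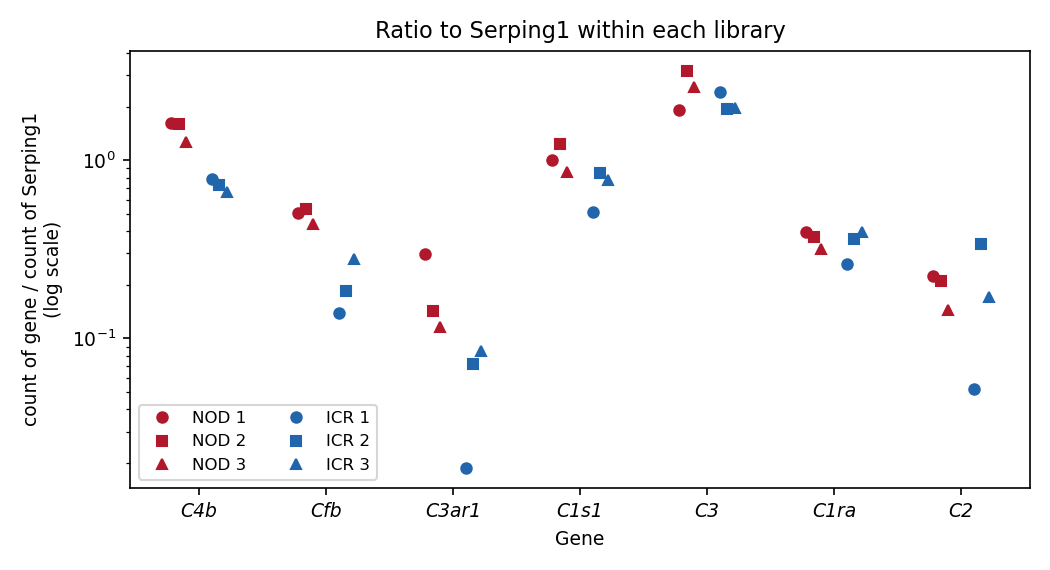
Count of each gene divided by the count of Serping1 in the same library (log axis), NOD/Ltj in red and ICR in blue, with a symbol for each library. C4b, Cfb, C3ar1 and C1s1 show the 3 NOD/Ltj libraries above the 3 ICR libraries, and C3, C1ra and C2 overlap.

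Some of these genes have copies with similar sequence, and the counting may have split reads among them. C4b took 94.1, 93.6 and 94.0% of the counts of C4b and C4a in NOD/Ltj, against 98.4, 85.9 and 92.0% in ICR. C1ra took 73.2 to 78.3% of the counts of C1ra and C1rb in NOD/Ltj, against 77.3 to 81.7% in ICR. C1s1 took 94.1 to 96.8% of those of C1s1 and C1s2 in NOD/Ltj, against 92.7 to 96.7% in ICR. With each pair summed to 1 gene, the log2 fold changes were -0.59 for C4, -1.18 for C1r and -0.73 for C1s. Of the 14 ratios without overlap 13 remained so after summing, the exception being that of C1s1 to Serping1. C2 and Cfb lie next to each other and are spanned by a joint gene model, Gm20547, which held 88 counts in NOD 2, 39 in ICR 2 and 0 in the others. C2, Cfb and Gm20547 summed to 1 gene gave a log2 fold change of -0.14 (edgeR adjusted p = 0.949).

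Of 47 further complement genes on 7 lists, 33 were tested, 1 was higher in NOD/Ltj and 0 lower, where 1.88% of all genes were higher. By edgeR 6 of the 33 had an unadjusted p under 0.05, against 13.1% of all genes. DESeq2 called 3 higher and limma-voom 0, where they called 4.31% and 0.664% of all genes with an adjusted p higher. The gene called was Cr2, which encodes a receptor for C3 fragments on B cells and follicular dendritic cells. It stood at 6.33, 24.5 and 19.97 CPM in NOD/Ltj, against 0.491, 0.0808 and 0.140 CPM in ICR (log2 fold change 6.12 ± 0.80 SE, adjusted p = 0.0136, and 7.24 ± 0.81 SE, adjusted p = 0.0135, without ICR 1). All NOD/Ltj libraries were above all ICR libraries, as were the summed levels of 5 B cell markers, at 82.7 to 330 CPM in NOD/Ltj and 1.53 to 4.53 CPM in ICR. The part of B cells in the Cr2 result was not tested. The call of Cr2 ended without ICR 2, ICR 3, NOD 2 or NOD 3, where 0 of these further genes were called. Calls fell over all genes as well. In these fits 112 of 19406, 120 of 19313, 63 of 19080 and 11 of 19240 genes were higher. With all libraries 349 of 18537 were.

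Of 6 further classical pathway genes 0 were called with all libraries by edgeR, and C1qb had the highest mean CPM of them. C1qb, a chain of the recognition molecule C1q, stood at 20.5, 32.2 and 24.1 CPM in NOD/Ltj, against 20.9, 5.78 and 8.02 CPM in ICR. Its log2 fold change was 1.14 ± 0.47 (SE, adjusted p = 0.355) with all libraries. Without ICR 1 it was 1.88 ± 0.27 (SE, adjusted p = 0.0220). Beside the 33 further genes, Colec11 and Cpn1 had enough counts to be tested in the fit without ICR 1, and neither was called. In that fit 5 of the further genes were higher, where 2.10% of all genes were. They were Cr2, C1qb, the other C1q chains C1qa and C1qc, and Itgb2, an integrin chain of complement receptors. C1qa, C1qc and Itgb2 are named after their values were seen.

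The leading genes of the other lists did not pass in either fit. Clu, which encodes the fluid-phase inhibitor clusterin, stood at 60.0, 119 and 72.7 CPM in NOD/Ltj, against 258, 53.8 and 54.0 CPM in ICR, with ICR 1 again the highest. Cd55, a membrane protein that breaks up convertases, stood at 6.81, 18.9 and 12.2 CPM in NOD/Ltj, against 19.3, 2.96 and 3.57 CPM in ICR. C7, a part of the membrane attack complex, stood at 3.70, 8.52 and 4.94 CPM in NOD/Ltj, against 19.2, 7.64 and 6.31 CPM in ICR. Cfp, which encodes properdin, the stabiliser of the alternative convertase, averaged 5.02 ± 1.55 CPM in NOD/Ltj and 5.20 ± 4.24 CPM in ICR (SD, n = 3 each). For Clu, Cd55, C7 and Cfp alike, ICR 1 was the highest library. Masp2, a protease of the lectin pathway, was an exception, with 4.85, 2.73 and 3.32 CPM in NOD/Ltj, against 0.896, 5.82 and 8.84 CPM in ICR, so that ICR 1 was the lowest.

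Cebpd, which encodes a C/EBP factor and is named after its values were seen, was not called by edgeR, with 3.83, 4.32 and 4.79 CPM in NOD/Ltj, against 12.2, 2.81 and 7.29 CPM in ICR (adjusted p = 0.570, and 0.840 without ICR 1).

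Some marker lists, but not all, were high in ICR 1 as the complement genes were. Among the ICR libraries, ICR 1 was highest for 1 of 5 endothelial, 1 of 6 acinar and 0 of 5 myoepithelial markers. The summed endothelial level was still highest in ICR 1 of the ICR libraries, at 31.85 CPM against 21.68 in ICR 2 and 22.48 in ICR 3. The 1 endothelial marker highest there was Tek, 6.21-fold above the mean of ICR 2 and ICR 3. The summed level of the 9 complement genes was 143, 259 and 180 CPM in NOD/Ltj, against 971, 103 and 166 CPM in ICR. The summed level of 7 fibroblast markers was 427 to 572 CPM in NOD/Ltj, against 2994 CPM in ICR 1, 607 in ICR 2 and 647 in ICR 3, with all 7 highest in ICR 1 among the ICR libraries. That of 9 macrophage and monocyte markers was 112 to 178 CPM in NOD/Ltj, against 269, 61.8 and 82.5 CPM in ICR, with 8 of 9 highest in ICR 1 among the ICR libraries. Cd163 and Mrc1, scavenger and mannose receptors of tissue macrophages, were not called and are named after their values were seen. They reached 40.001 and 58.2 CPM in ICR 1, against at most 3.27 and 7.85 CPM in the other ICR libraries. Other markers of the list rose less, with Fcgr1 and Ms4a7 1.60-fold and 1.76-fold above the mean of ICR 2 and ICR 3. Mertk was lowest in ICR 1, at 7.45 CPM against 12.8 in ICR 2 and 10.8 in ICR 3. The part of fibroblasts and macrophages in the complement levels was not tested.

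Ductal and adipocyte markers were also high in ICR 1, with all 5 of each list highest there among the ICR libraries. The summed level of the ductal markers was 282 to 329 CPM in NOD/Ltj, against 635, 338 and 306 CPM in ICR. In ICR 1, Krt7, Krt8 and Krt18 were 2.84-fold, 1.91-fold and 1.84-fold above the mean of ICR 2 and ICR 3. Cldn4 and Krt19 were 24.9-fold and 7.10-fold above it, with Cldn4 at only 0.468 and 0.524 CPM in ICR 2 and ICR 3. That of the adipocyte markers was 0.5, 7.15 and 2.98 CPM in NOD/Ltj, against 16.3, 1.99 and 8.25 CPM in ICR. The part of duct and fat cells was not tested either.

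The summed level of 6 markers of acinar cells, the secretory cells of the gland, was 8079 to 12280 CPM in NOD/Ltj and 8233 to 11890 CPM in ICR. Pip alone made up most of it, with 7595 to 11721 CPM in NOD/Ltj and 7761 to 11088 CPM in ICR. Prol1 was called lower in NOD/Ltj, with 2.52, 2.59 and 2.54 CPM, against 20.7, 147 and 68.0 CPM in ICR (edgeR adjusted p = 0.0160). Salivary gland markers summed to 53.4, 2472 and 80.9 CPM in NOD/Ltj, against 611, 1353 and 13820 CPM in ICR, so NOD 2 and ICR 3 were the highest of their groups. Skeletal muscle markers reached 95.7 CPM in ICR 3 and at most 4.12 CPM in the other libraries. The part of this tissue in the complement levels was not tested. The 5 hepatocyte markers together reached at most 0.682 CPM in NOD/Ltj and 0.159 CPM in ICR, so markers of liver, the main source of blood complement, were near 0 in all libraries. ICR 1 had the lowest summed level of the 5 B cell markers, at 1.53 CPM, and of the 5 T cell markers, at 1.79 CPM. The part of lymphocytes in the complement levels was not tested. NOD 2 was the highest of the NOD/Ltj libraries for 7 of the 9 complement genes, as for 35.5% of all genes tested, and it also had the highest B and T cell sums.

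**Figure D4:**
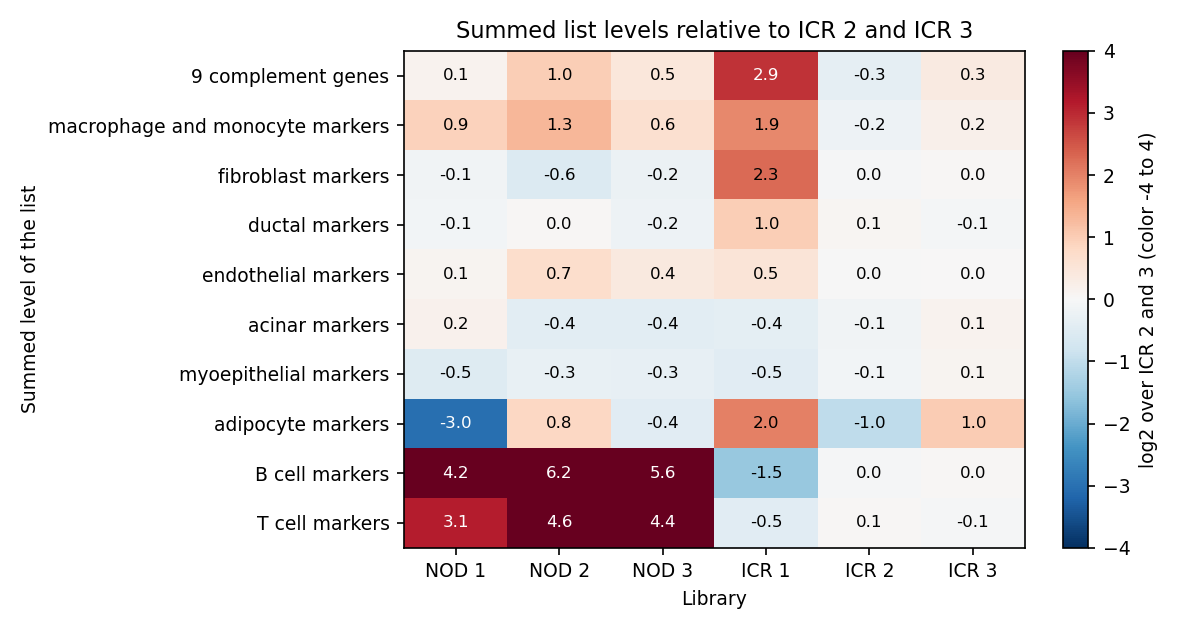
Summed level of each list in each library as log2 over the mean of ICR 2 and ICR 3, NOD/Ltj libraries at the left and ICR at the right. ICR 1 is at 2.9 for the 9 complement genes, 2.3 for fibroblast and 1.9 for macrophage and monocyte markers, whereas the B and T cell markers are high in the NOD/Ltj libraries.

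Genes outside the complement and marker lists with the most similar profile were found by the root mean square difference between profiles of log2(CPM + 0.5) over the 6 libraries, each centred on its own mean, among 9214 genes with at least 5 CPM on average. For C3 the closest were Il33 (0.177), Mgst1 (0.265) and Igfbp4 (0.299). For Serping1 they were Ifi211 (0.154), Rcan2 (0.194) and Mgst1 (0.204), and for C1ra Rcan2 (0.146), S100a6 (0.157) and Prrx1 (0.164). C1s1 lay closest to Ltbp1 (0.121), Fcgrt (0.131) and S100a10 (0.149), and C4b to Rab3il1 (0.181) and Xdh (0.313). The profiles of C3, Serping1, C1ra, C1s1 and C4b all have their peak in ICR 1. Cfb lay closest to Lgals3 (0.190), Ifitm3 (0.218) and Ifi204 (0.231), and C3ar1 to Ifih1 (0.170), Lgals3bp (0.211) and Trim25 (0.218). C2 lay closest to Atrnl1 (0.101), Coro1c (0.103) and Uap1l1 (0.114), and Hc, whose profile is nearly flat on this scale, to Olfm1 (0.0498), Myo6 (0.0501) and Gstm2 (0.0527).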

How the data were processed

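Polyadenylated RNA of 6 lacrimal gland samples had been sequenced as strand-specific paired-end libraries, per the labels' protocols. The deposited values are the authors' estimated counts, whole numbers per gene and library without scaling between libraries. Fastp, StringTie and edgeR are named without roles in the submitters' processing notes. For aligner, build and strand setting, which are not given in the sources, nothing is assumed, and overlapping and near-identical genes are uncertain. Titles of the NOD/Ltj samples read MOD, and their genotype label and column names gave the strain. The planned count test was kept, since the estimates needed no rounding.

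Symbols came from GENCODE M21 (55141 of 55401 identifiers matched), which also gave exon lengths. Strains were compared with edgeR 4.0.16 in R 4.3.3 (quasi-likelihood test, two-sided, TMM scaling, filterByExpr, no block), with Benjamini-Hochberg adjustment over 18537 genes. SE is the log2 fold change divided by the root of F, and intervals are 95%. DESeq2 1.42.0, limma-voom (limma 3.58.1), other scalings and filters, a replicate block, each library left out and summed gene copies were run as alternatives. The procedure was tested on simulated data. Library pairs differed by chi-square of 94.3 or more per degree of freedom, so each counted as 1 sample.

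All 9 genes are named. From each further complement list the called genes were named, or else the most abundant one. Some items that these rules cover are not reported here. The genes, lists and tests were chosen with earlier results of these data known.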

Additional observations from a re-analysis of the deposited data

How the results depend on the processing

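No complement gene of the 9 was called under any of the alternatives run (0 higher and 0 lower each time), with 12 to 14 alternatives per gene and a lowest adjusted p of 0.0812 (C4b without ICR 1). Signs changed in 9 cases. C4b turned to 0.15 with limma-voom, 0.23 with the replicate block and 1.18 without ICR 1. Without ICR 1, C1s1 turned to 0.45, C3 to 0.51 and Serping1 to 0.065. Cfb, near 0 with all libraries, turned to -0.43 without ICR 2, -0.20 without ICR 3 and -0.21 without NOD 2. The cause was not tested. With single libraries left out, the values ran from -1.11 to 1.18 for C4b, from -1.14 to 0.45 for C1s1, from -1.88 to 0.51 for C3, from -2.06 to 0.065 for Serping1 and from -0.43 to 1.09 for Cfb. Of all genes, 349 were higher and 67 lower with edgeR, 940 and 279 with DESeq2, 123 and 20 with limma-voom, and 129 and 25 with the replicate block. With single libraries left out the counts ran from 11 to 406 higher and from 2 to 118 lower, the lowest without NOD 3. Of the further complement genes, 1 was higher with edgeR, 3 with DESeq2, 0 with limma-voom, 0 with the replicate block and 0 to 5 with single libraries left out. No label says that the replicate numbers pair the samples. Deviations from the group means of equally numbered libraries correlated at -0.161, -0.189 and 0.118. With 3 libraries per strain, these values cannot show whether samples were paired. Hc was not tested under the stricter filter (1 CPM in 3 libraries). Hc rests on at most 33 counts per library.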

Other observations

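Cfd, which encodes adipsin, the protease that activates factor B and a product of fat cells, varied with the adipocyte markers and was chosen after its values were seen. It stood at 0.463, 5.87 and 1.05 CPM in NOD/Ltj, against 12.7, 1.49 and 4.46 CPM in ICR (edgeR adjusted p = 0.684, and 0.941 without ICR 1). The summed level of 5 adipocyte markers was 0.5, 7.15 and 2.98 CPM in NOD/Ltj, against 16.3, 1.99 and 8.25 CPM in ICR. Within each strain the order of the libraries was the same for both, and the part of fat cells in the Cfd level was not tested.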
